A study of Mus musculus with 6 samples.

Results

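Genes of sterol and fatty acid synthesis and of their regulators, the SREBP and LXR transcription factors, were followed in cultured dermal cells of neonatal C57BL/6 mice. A list of 39 genes was taken by symbol, and a gene entered when a probe set of the array was annotated with its symbol alone. The probe set with the highest mean over all arrays was used for each gene. This gave 37 of the 19938 genes tested, and the remaining 2, Acat2 and Nr1h2, are not analysed here. The 37 genes fell into 16 enzymes of sterol synthesis, 7 genes of the SREBP machinery and sterol transport, 11 genes of the fatty acid branch, and 3 genes of the LXR system.

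The cells were kept for 2 days with the solvent (DMSO, 3 arrays) or with forskolin and RepSox, each at 20 μM (FR, 3 arrays). All 6 samples come from neonatal skin of the same strain. Forskolin is a plant diterpene that increases cyclic AMP through adenylyl cyclase. RepSox blocks the kinase of the type I TGF-β receptor. The compounds were given together, so their separate parts cannot be told apart. Whether replicates were separate cultures or animals is not in the labels. The p-values thus rest on the spread of these 6 samples alone, and that spread may be technical. Levels are log2 values made by RMA, and a change is the difference of group means on that scale, positive where FR was higher.

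SREBP factors are made as membrane proteins of the endoplasmic reticulum, where the INSIG proteins hold the SREBP escort SCAP while sterol is plentiful. When sterol runs low, SCAP carries the precursor to the Golgi, and proteases there release the part that enters the nucleus. The product of Srebf2 acts mainly on sterol synthesis genes and that of Srebf1 mainly on fatty acid synthesis genes. LXR receptors are activated by oxysterols and switch on cholesterol export genes such as Abca1 and Abcg1 and also Srebf1. In skin, sterols and fatty acids serve as membrane lipids, as the barrier lipids of the epidermis and as the stored fat of dermal adipocytes.

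Promoter sequence does not come from the arrays, but the genes searched were chosen with results of these data known. RefSeq start sites of build GRCm38.p6 gave 40 windows for 30 of the 39 listed genes, and the 250 bases before each start were searched on both strands. The 9 genes without a window here are Abcg1, Fdft1, Sqle, Scd2, Fdps, Scd1, Fads1, Npc1 and Stard4. The letters TCACCNCA, a core of the sterol regulatory element that SREBP binds, were found before 5 genes, namely Hmgcs1, Cyp51, Hsd17b7, Srebf2 and Elovl5, in 12.5% of the members' windows and in 3.61% of all 32851 windows. The letters CCAAT are the box of the cofactor NF-Y. They were found before 13 of 14 sterol synthesis enzymes with a window and before 4 of 8 genes of the fatty acid branch. Counted by window, they were in 55.0% of the members' windows and in 33.8% of all windows. Of the 5 genes with the sterol element, Elovl5 did not pass the test described below and the other 4 fell. The CCAAT box was also found before Ggps1, the only one of the 16 listed sterol synthesis enzymes that did not pass. Further motifs were searched too. The GC box, GGGCGG, was before 12 of 14 sterol synthesis enzymes and in 62.5% of the members' windows, against 32.7% of all windows. The E-box, CACGTG, was in 17.5% against 6.02%. The cyclic AMP element was searched only as its full letters, TGACGTCA. It was in 0.0% against 1.55%, a share so small that 40 windows cannot show a lack of it. The motifs were searched with these genes in view, and a match is a description and not a binding site. These 3 promoters are shown as examples of genes that fell and whose windows hold both the sterol element and a CCAAT box, in capitals. Hsd17b7, not shown, also meets this description. Hmgcs1 is at chr13:119690101-119690350 on the plus strand, Cyp51 at chr5:4104698-4104947 on the minus strand and Srebf2 at chr15:82147019-82147268 on the plus strand.
Hmgcs1: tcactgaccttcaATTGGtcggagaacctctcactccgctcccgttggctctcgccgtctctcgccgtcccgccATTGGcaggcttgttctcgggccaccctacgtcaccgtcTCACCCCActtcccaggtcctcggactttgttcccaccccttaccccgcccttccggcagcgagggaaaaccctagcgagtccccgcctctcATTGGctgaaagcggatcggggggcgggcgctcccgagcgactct
Cyp51: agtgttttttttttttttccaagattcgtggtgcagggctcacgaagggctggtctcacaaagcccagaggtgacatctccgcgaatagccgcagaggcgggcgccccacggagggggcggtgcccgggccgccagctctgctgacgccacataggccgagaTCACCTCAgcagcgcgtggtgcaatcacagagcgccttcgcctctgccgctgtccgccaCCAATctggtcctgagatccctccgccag
Srebf2: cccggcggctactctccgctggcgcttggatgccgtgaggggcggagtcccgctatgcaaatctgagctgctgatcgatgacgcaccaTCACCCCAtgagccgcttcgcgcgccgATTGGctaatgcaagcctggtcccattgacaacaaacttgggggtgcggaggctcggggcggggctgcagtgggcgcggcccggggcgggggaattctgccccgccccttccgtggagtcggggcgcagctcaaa

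A second element sets Abca1, Srebf1 and Fasn side by side. LXR binds as a dimer with RXR to a direct repeat of a half-site with a spacer of 4 bases, called DR4. The letters GGTTA, then 4 bases of any kind, then CGGTCA were chosen after the Abca1 and Srebf1 windows had been read. They were found in 4 of the 32851 windows, on either strand. Of these windows 3 belong to listed genes: Abca1, Srebf1 and Fasn. The other is that of Prrg4, whose change was 0.0053 (limma adjusted p = 0.968). The match lay from base -67 to base -53 before the start of Abca1, from -182 to -168 for Srebf1 and from -225 to -211 for Fasn. Abca1 and Fasn share the same 15 letters. The promoters are at chr4:53159896-53160145, chr11:60210472-60210721 and chr11:120824548-120824797, all on the minus strand, and the match is in capitals. The Srebf1 window is 1 of 3 listed for that gene, and the probe set of Srebf1 was not tied to any of them.
Abca1: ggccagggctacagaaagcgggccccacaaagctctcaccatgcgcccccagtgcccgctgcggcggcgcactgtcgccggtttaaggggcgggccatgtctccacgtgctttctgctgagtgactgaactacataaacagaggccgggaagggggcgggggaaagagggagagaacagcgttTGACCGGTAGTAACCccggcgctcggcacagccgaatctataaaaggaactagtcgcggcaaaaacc
Srebf1: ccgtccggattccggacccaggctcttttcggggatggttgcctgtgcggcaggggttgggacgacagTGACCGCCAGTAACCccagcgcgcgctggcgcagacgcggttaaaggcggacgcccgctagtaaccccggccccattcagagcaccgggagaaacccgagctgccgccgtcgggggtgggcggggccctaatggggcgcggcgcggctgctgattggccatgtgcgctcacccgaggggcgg
Fasn: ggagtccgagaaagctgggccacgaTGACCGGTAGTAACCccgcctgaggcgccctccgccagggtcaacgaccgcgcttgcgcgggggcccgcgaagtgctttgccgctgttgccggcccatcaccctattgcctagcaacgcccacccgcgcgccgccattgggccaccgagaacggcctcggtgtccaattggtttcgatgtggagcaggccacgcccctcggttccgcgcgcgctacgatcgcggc

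Across the 37 genes, 26 were lower with FR, 2 were higher and 9 did not pass (limma, Benjamini-Hochberg adjusted p under 0.05 over all genes). Among all 19938 genes tested, 14.5% were lower and 13.4% were higher by the same rule. The median change was -0.51 over the 37 genes and 0.053 over all genes. The falls were moderate: none of the 26 reached 2-fold, whereas 1.50% of all genes were lower by at least that much. Abca1 alone among the 37 rose by 2-fold or more, against 1.63% of all genes. The DMSO and FR arrays did not overlap for 28 genes that were lower and 3 that were higher, against 20.9% and 23.0% of all genes (43.9% in either direction). The members were chosen with results of these data known, so the counts describe these genes and carry no test of the list.

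**Figure D1:**
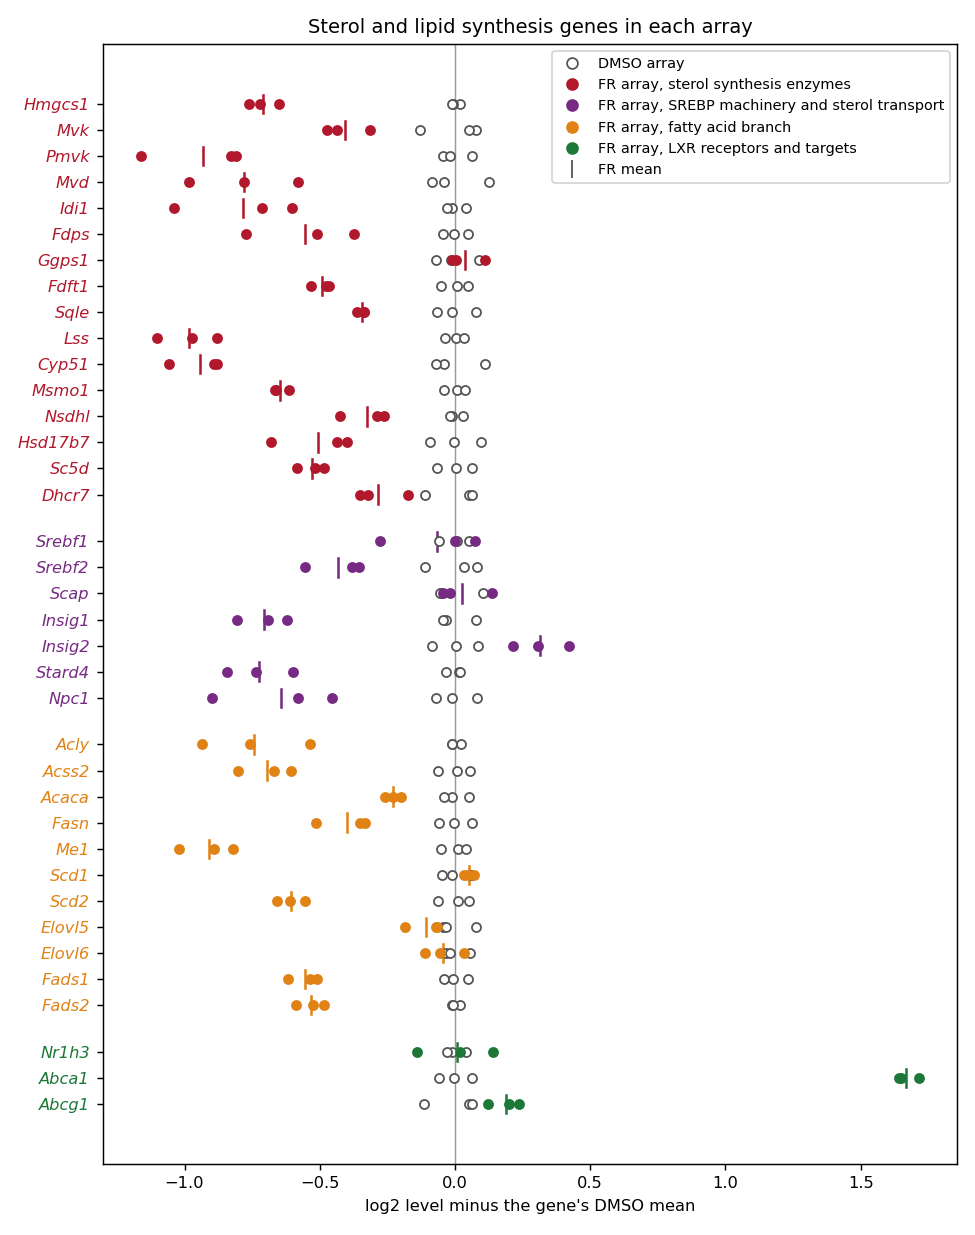
Level of each of the 37 genes in each array, as log2 level minus the mean of the gene's 3 DMSO arrays (x axis), with genes in rows by role. Open circles are DMSO arrays, filled circles are FR arrays and the short line is the FR mean. The FR points of 15 of 16 sterol synthesis enzymes lie left of all DMSO points. Those of Scd1, Scap, Ggps1, Nr1h3, Srebf1 and Elovl6 overlap the DMSO points, and those of Abca1 lie far to the right.

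The enzymes of sterol synthesis were lower almost throughout the pathway. Of 16 enzymes, 15 fell and 0 rose, with a median change of -0.54 and a range from -0.98 to 0.036. The path starts with Hmgcs1, which makes HMG-CoA. Its levels were 10.93, 10.91 and 10.91 in DMSO and 10.27, 10.20 and 10.16 in FR. The groups did not overlap, and Hmgcs1 was 1.64-fold lower (log2 change -0.71, SE 0.08, adjusted p = 6.95e-05). The mevalonate kinases followed. Mvk fell by 0.41 (adjusted p = 0.007) and Pmvk, the kinase after it, fell by 0.93 (adjusted p = 7.43e-05). Levels of Pmvk were 8.99, 9.01 and 9.10 in DMSO and 8.20, 8.22 and 7.87 in FR. The decarboxylase gene Mvd and the isomerase gene Idi1, which together yield the isoprenoid building blocks, were both 1.72-fold lower, and both probe sets of Idi1 gave like changes (-0.79 and -0.81).

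At the branch point of isoprenoids the genes parted. Fdps, which makes farnesyl diphosphate for sterols and for protein prenylation, was 1.47-fold lower (10.26 ± 0.05 to 9.71 ± 0.20, mean ± SD, n = 3, adjusted p = 0.00289). Ggps1, which extends farnesyl to geranylgeranyl diphosphate outside the sterol path, was the only enzyme of the 16 that did not pass. Its levels of 8.12, 7.97 and 8.02 in DMSO overlapped those of 8.15, 8.03 and 8.04 in FR. The change of Ggps1 was 0.036 with a 95% confidence interval from -0.15 to 0.22, and its sign turned when arrays were centred on their medians (-0.021), without DMSO replicate 2 or without FR replicate 1 (-0.0028). Fdft1, the squalene synthase gene that commits farnesyl to sterols, fell by 0.49 on the probe set used and by 0.87 on its other probe set.

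The steps from squalene to cholesterol held both the largest and the smallest falls. Lss, which closes the sterol rings, had the largest fall of all 37 genes. It went from 8.96, 8.98 and 8.91 in DMSO to 8.07, 7.98 and 7.85 in FR, a 1.98-fold lower level (log2 change -0.98, SE 0.09, adjusted p = 1.27e-05). In the order of falls over all genes Lss stood at place 307. Cyp51, the lanosterol demethylase gene, was 1.92-fold lower. Levels of Cyp51 were 10.63, 10.59 and 10.78 in DMSO and 9.78, 9.61 and 9.79 in FR, well apart in every array (adjusted p = 2.44e-05). The epoxidase gene Sqle, just before Lss in the path, fell by 0.34 (adjusted p = 0.00921).

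The late enzymes fell by 0.28 to 0.65. Msmo1, a methyl sterol oxidase gene, fell by 0.65 and Nsdhl, which acts with it in demethylation, by 0.33. The ketoreductase gene Hsd17b7 fell by 0.51 and the desaturase gene Sc5d by 0.53. Dhcr7, the reductase gene at the end of the path, had the smallest fall that passed, from 8.63 ± 0.10 to 8.34 ± 0.09 (log2 change -0.28, adjusted p = 0.0391). The call for Dhcr7 was lost without DMSO replicate 2 (adjusted p = 0.125) or 3 (0.13), without FR replicate 1 (0.0872) or 3 (0.094), and with quantile normalization (0.106) or cyclic loess (0.138). The call for Nsdhl was lost without DMSO replicate 3 (adjusted p = 0.0553). Other genes of sterol and isoprenoid synthesis gave 3 falls and 0 rises among 10 measured, with a median of -0.22. Ebp, the sterol isomerase gene, fell by 0.69 (8.86 ± 0.13 to 8.17 ± 0.23, adjusted p = 0.00149), and Fntb, a farnesyltransferase subunit gene, fell by 0.48. Pdss2, of coenzyme Q synthesis, fell by 0.32 (adjusted p = 0.012). With DMSO replicate 3 left out, Pdss2 no longer passed (adjusted p = 0.0572).

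The regulators did not move as a block. Of 7 genes of the SREBP machinery and sterol transport, 4 fell and 1 rose, with a median of -0.43. Srebf2 levels were 9.07, 9.26 and 9.21 in DMSO and 8.80, 8.83 and 8.63 in FR. The groups did not overlap, and Srebf2 was 1.35-fold lower (log2 change -0.43, SE 0.09, adjusted p = 0.00572). Srebf1 levels were 7.41, 7.52 and 7.47 in DMSO and 7.47, 7.54 and 7.19 in FR. Only FR replicate 3 was below the DMSO range, and Srebf1 did not pass (log2 change -0.067, adjusted p = 0.654, with a sign that turned to 0.038 without FR replicate 3). Scap, the sterol-sensing escort gene, overlapped between groups with a change of 0.026, which turned to -0.030 with median centring, to -0.031 without FR replicate 2, and also below 0 without DMSO replicate 3.

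The INSIG genes went in opposite directions. Insig1, itself a well-known SREBP target whose protein retains SCAP, had levels of 10.99, 10.99 and 11.11 in DMSO and 10.41, 10.34 and 10.22 in FR. It was 1.63-fold lower (log2 change -0.71, SE 0.09, adjusted p = 0.000137). Insig2, which encodes the other retention protein, had levels of 7.67, 7.58 and 7.75 in DMSO and 7.98, 8.09 and 7.88 in FR. The groups did not overlap for either gene, and Insig2 was 1.24-fold higher (log2 change 0.32, SE 0.09, adjusted p = 0.0247). The rise of Insig2 passed narrowly. Its adjusted p was 0.0692 without DMSO replicate 1, 0.0999 without DMSO replicate 2, 0.0743 without FR replicate 2 and 0.0663 with median centring. The change of Insig1 minus that of Insig2 was -1.02.

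Stard4 and Npc1, which move sterol inside the cell, fell. Stard4, which carries cholesterol between membranes, was 1.65-fold lower (8.87 ± 0.03 to 8.15 ± 0.12, adjusted p = 0.000131). Npc1, which exports cholesterol from lysosomes, had levels of 8.34, 8.40 and 8.49 in DMSO and 7.95, 7.83 and 7.51 in FR, and was 1.56-fold lower (adjusted p = 0.00179). FR replicate 3 was the lowest FR array for Npc1, as it was for 20 of the 26 genes that fell. Without FR replicate 3, 25 genes were lower and 2 higher. Of 12 further genes of sterol uptake, storage and movement, 6 fell, 0 rose and 6 did not pass (median -0.28, range -0.48 to 0.20). Lipa, the lysosomal acid lipase gene, fell by 0.48 (adjusted p = 0.0231), and its call was lost without DMSO replicate 1 (0.0619), 2 (0.0513) or 3 (0.0508). Tmem97, a sterol-regulated membrane protein gene, fell by 0.45 (adjusted p = 0.00893) and Scarb1, a lipoprotein receptor gene, by 0.41 (adjusted p = 0.0068). Of 8 further genes of SREBP processing and sterol sensing, 1 rose and 1 fell (13.4% and 14.5% among all genes). These were Erlin1 (0.34, adjusted p = 0.023) and Sec24a (-0.27, adjusted p = 0.0336). The call for Erlin1 was lost without DMSO replicate 2 (adjusted p = 0.0616) or 3 (0.0989), FR replicate 1 (0.0606) or FR replicate 3 (0.0502), and that for Sec24a without DMSO replicate 2 (0.124) or 3 (0.107), FR replicate 2 (0.0805) or FR replicate 3 (0.0534). Erlin1 also no longer passed with median centring (0.055), nor Sec24a with quantile normalization (0.0955) or cyclic loess (0.123).

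The fatty acid branch was lower at its start and uneven further on. Of 11 genes, 7 fell and 0 rose, with a median of -0.53 and a range from -0.91 to 0.050. The genes that supply acetyl-CoA and NADPH fell clearly. Acly, which splits citrate into acetyl-CoA, had levels of 9.98, 9.95 and 9.94 in DMSO and 9.42, 9.20 and 9.02 in FR, a 1.67-fold lower level (adjusted p = 0.000353). Acss2, which makes acetyl-CoA from acetate, was 1.62-fold lower (8.78 ± 0.06 to 8.09 ± 0.10). Me1, the malic enzyme gene that yields NADPH, had the largest fall of the branch. Levels of Me1 were 9.29, 9.35 and 9.38 in DMSO and 8.52, 8.45 and 8.32 in FR (1.88-fold lower, log2 change -0.91, SE 0.09, adjusted p = 2.06e-05), and its other probe set gave -0.88.

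Of the genes of the branch that build the chain, only Fasn passed. Fasn, the fatty acid synthase gene, had levels of 9.13, 9.26 and 9.19 in DMSO and 8.84, 8.86 and 8.68 in FR and was 1.32-fold lower (adjusted p = 0.00625). Acaca, the acetyl-CoA carboxylase gene, had a change of -0.23 that narrowly missed the threshold (adjusted p = 0.0526) although its groups did not overlap. Acaca passed with median centring (adjusted p = 0.029), with dim genes left out (0.0239), with the mean of its probe sets (0.0376) and with a variance trend (0.0194). The elongase genes of the branch did not pass. Their changes were -0.11 for Elovl5 (95% interval -0.29 to 0.08) and -0.044 for Elovl6 (-0.23 to 0.14), and the latter turned to 0.019 with cyclic loess. Of the further elongase genes measured, on the wider list below, Elovl1 fell by 0.39 (limma adjusted p = 0.00674) and Elovl7 by 0.53 (0.00515). The rest did not pass.

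The desaturases divided. Scd1 and Scd2 encode enzymes that place the first double bond in saturated fatty acids. Scd1 levels were 11.74, 11.78 and 11.85 in DMSO and 11.86, 11.82 and 11.84 in FR. The groups overlapped, with a change of 0.050 and a 95% interval from -0.12 to 0.23, which turned to -0.0058 with median centring. Scd2 levels were 11.48, 11.60 and 11.56 in DMSO and 10.99, 10.94 and 10.89 in FR. Scd2 thus lay lower in every FR array than in any DMSO array (1.52-fold lower, log2 change -0.61, SE 0.08, adjusted p = 0.000251). Probe sets of such closely related genes can share signal, which was not tested. Fads1 and Fads2, the desaturases of polyunsaturated fatty acids, fell by like amounts, 0.55 and 0.53 (adjusted p = 0.000454 and 0.000518).

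**Figure D2:**
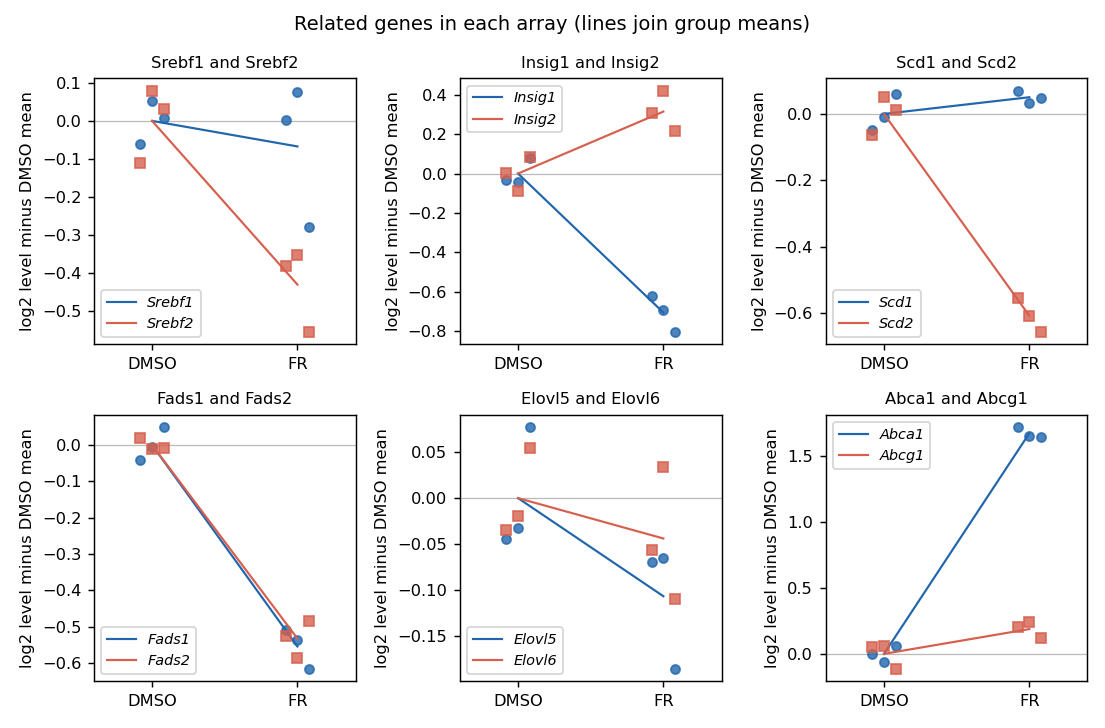
Levels of 6 pairs of related genes in each array, as log2 level minus the gene's DMSO mean (y axis), in DMSO and FR. Points are arrays, lines join the group means, and the first gene of each pair is blue with circles and the other is red with squares. Fads1 and Fads2 run together, Insig1 and Insig2 part in opposite directions, and Scd1 stays near 0 while Scd2 drops.

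Those 6 pairs were tested for a difference between their changes with an exact two-sided permutation test over the 6 arrays, in which 3 against 3 cannot go below 0.1. The difference in change was 0.36 for Srebf1 minus Srebf2, 0.66 for Scd1 minus Scd2, 1.48 for Abca1 minus Abcg1 and -0.063 for Elovl5 minus Elovl6. These and the Insig pair gave the smallest exact p that the design allows, 0.1 (0.12 after adjustment over the 6 pairs), so none could pass. The difference of Fads1 and Fads2 was -0.022, within the spread of the arrays (exact p = 0.8), and its sign turned without FR replicate 3 (0.032).

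Abca1 had the largest rise of the 37 genes, and Insig2 was the other gene that rose. Abca1 encodes the transporter that exports cholesterol to lipid-poor apolipoprotein. Its levels were 7.44, 7.39 and 7.51 in DMSO and 9.16, 9.09 and 9.09 in FR. The groups lay far apart, and Abca1 was 3.18-fold higher (log2 change 1.67, SE 0.08, 95% interval 1.49 to 1.85, adjusted p = 1.77e-07). It stood at place 91 in the order of rises over all genes. Abcg1, the exporter to mature lipoprotein particles, had levels of 6.06, 6.07 and 5.90 in DMSO and 6.21, 6.25 and 6.13 in FR. The groups of Abcg1 did not overlap, but its change of 0.19 did not pass (adjusted p = 0.132).

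Of the LXR receptor genes listed, Nr1h2 is not analysed here and Nr1h3 was dim. Nr1h3, the LXRα gene, had means of 5.54 in both groups, under the level of 5.65 that 95% of 1027 olfactory receptor genes, taken as background, did not exceed in DMSO. Its change of 0.0059 turned to -0.084 with quantile normalization, -0.050 with median centring and -0.10 with cyclic loess. The genes whose promoters hold the DR4 letters thus differed: Abca1 rose, Srebf1 did not pass and Fasn fell. Of 13 further genes of oxysterol synthesis and LXR response, 3 rose and 2 fell (median 0.16), against 13.4% higher and 14.5% lower among all genes. The olfactory receptor genes had a median change of 0.139. Of the 3 that rose, Rxrg was under background in both groups (4.15 to 4.52). Cyp7b1, which inactivates oxysterols, rose 1.94-fold (8.21 ± 0.17 to 9.17 ± 0.15, adjusted p = 9.19e-05). Pltp, a phospholipid transfer protein gene and known LXR target, was 1.64-fold lower (adjusted p = 0.000265), and the transporter gene Abca5 fell by 0.42.

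**Figure D3:**
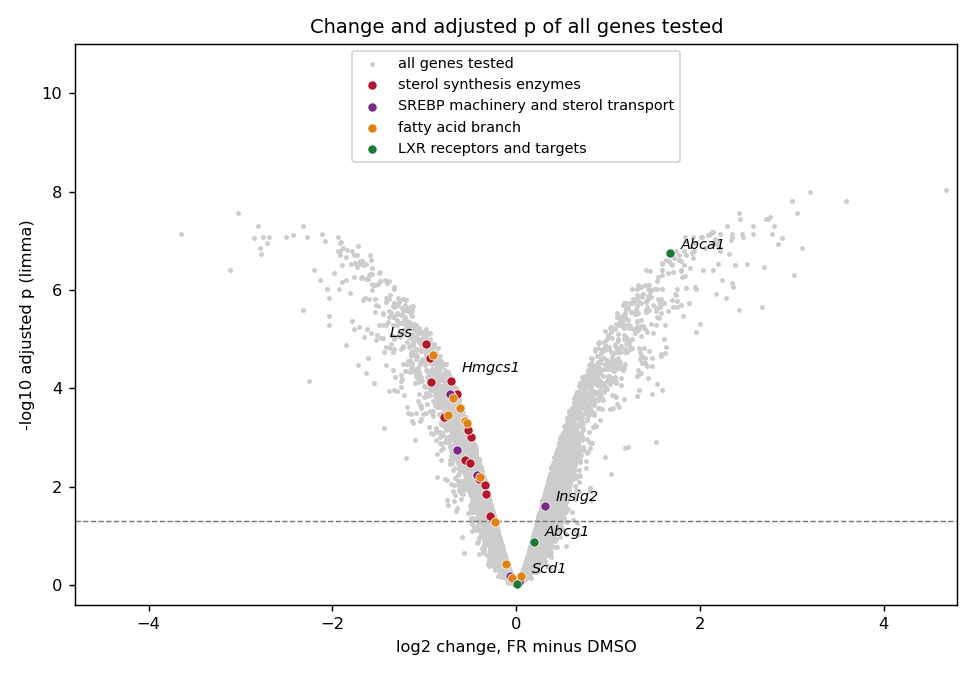
Log2 change, FR minus DMSO (x axis), against -log10 of the limma adjusted p (y axis) for the 19938 genes tested (grey), with the 37 genes coloured by role. The dashed line is an adjusted p of 0.05. Most coloured points lie on the left arm between changes of -0.98 and -0.28, and on the right Insig2 lies just above the line at 0.32 and Abca1 far above it at 1.67.

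Set side by side, the sterol branch lay slightly below the fatty acid branch. Each gene's level was taken minus its DMSO mean and averaged over the branch in each array. The 16 sterol enzymes were at -0.53, -0.56 and -0.64 in the FR arrays, and the 11 fatty acid genes at -0.38, -0.42 and -0.50. The DMSO arrays lay between -0.03 and 0.02 for both. The sterol branch was lower than the fatty acid branch by 0.14 ± 0.01 (SD, n = 3) in FR, and the medians of the branches were -0.54 and -0.53. The 3 LXR genes were at 0.59, 0.67 and 0.59, a mean over changes of 1.67 for Abca1, 0.19 for Abcg1 and 0.0059 for Nr1h3. No p is given for these means, since the genes were chosen with results known.

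**Figure D4:**
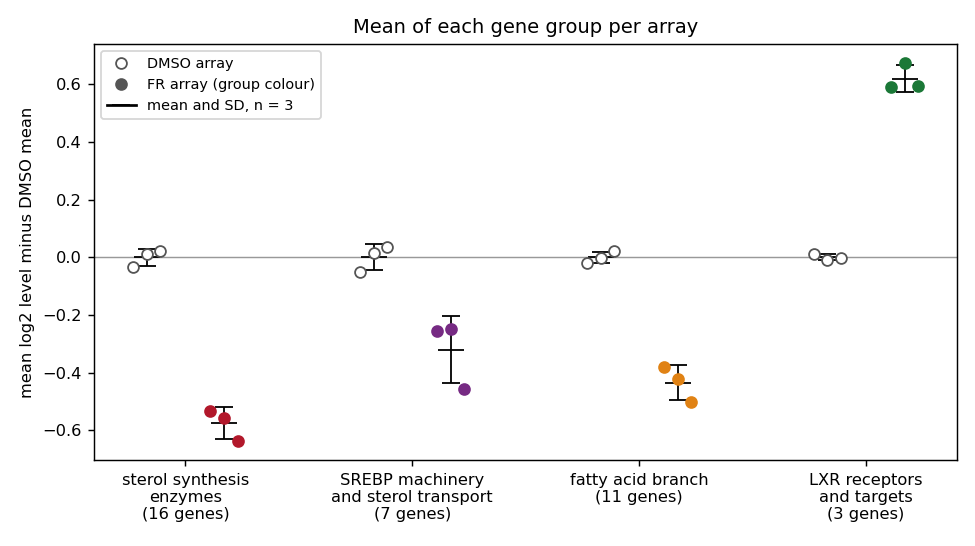
Mean over the genes of each group of the log2 level minus the gene's DMSO mean (y axis), for each array. Open circles are DMSO arrays, filled circles are FR arrays, and bars show the mean and SD of 3 arrays. The sterol enzymes lie lowest in FR, the SREBP machinery and fatty acid genes lie between them and 0, and the LXR genes lie above 0.

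A wider list of fatty acid and glycerolipid synthesis genes, which also holds further elongases, desaturases and lipogenic regulators, went both ways. Of its 20 measured genes, 7 fell and 5 rose (median 0.035). The enzymes of the last step of triglyceride synthesis rose: Dgat1 2.10-fold (7.35 ± 0.08 to 8.42 ± 0.14, adjusted p = 1.36e-05) and Dgat2 1.75-fold (6.24 ± 0.16 to 7.05 ± 0.06, adjusted p = 0.000115). Thrsp, a lipogenic gene, rose by 0.55 from a level of 5.53, within the background range. Gpam, which starts glycerolipid synthesis, rose by 0.30 (adjusted p = 0.0325), and the lipogenic factor gene Mlxipl rose by 0.25 (adjusted p = 0.0464). The call for Gpam was lost without DMSO replicate 1 (adjusted p = 0.131) or 3 (0.0899) and without FR replicate 1 (0.0724) or 2 (0.0765), and with median centring (0.0906). The call for Mlxipl was lost without any 1 of the arrays other than FR replicate 2 (adjusted p from 0.0583 to 0.141), and with quantile normalization (0.112), median centring (0.131), cyclic loess (0.143) and robust moderation with a variance trend (0.0621). Mid1ip1, the relative of Thrsp that promotes polymerisation of acetyl-CoA carboxylase, was 1.77-fold lower on the brighter of its 2 probe sets (adjusted p = 0.000138). The alternatives, which include the mean of a gene's probe sets, gave Mid1ip1 changes from -0.91 to -0.43. Without single arrays they ran only from -0.91 to -0.73. Pcyt1a, the rate-limiting enzyme gene of phosphatidylcholine synthesis, was 1.93-fold lower (8.35 ± 0.04 to 7.39 ± 0.18, adjusted p = 5.02e-05). The other genes of the list that fell were Slc25a1 (-0.69), Elovl7 (-0.53), Lpin1 (-0.52), Lpin2 (-0.40) and Elovl1 (-0.39). Over all 63 further pathway genes, 19 fell and 9 rose (median -0.17), where 14.5% of all genes tested were lower and 13.4% higher.

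Markers of several cell types moved with the treatment beside these genes. The median array level lay between 5.98 and 6.07, and pairs of arrays correlated with r from 0.9926 to 0.9961 within groups and from 0.9717 to 0.9776 between them, across genes. Of all genes, 2888 (14.5%) were lower and 2671 (13.4%) higher, a split that became 3447 and 1880 with median centring. All 8 fibroblast markers were above background in both groups, with 4 lower and 3 higher, among them Col1a2 (-1.57) and Lum (2.17). Adipocyte markers rose in 7 of 10 cases, with mean list levels of 6.60 to 6.63 in DMSO and 7.99 to 8.10 in FR. Fabp4 rose 5.41-fold, and Adipoq went from a mean of 4.82, under background, to 7.88. Keratinocyte markers rose in 8 of 10 cases (6.04 to 6.09 and 6.98 to 7.15), with Krt5 4.52-fold and Perp 3.54-fold higher. Muscle markers rose in 6 of 8 cases (6.01 to 6.13 and 7.03 to 7.17), with Actc1 4.48-fold higher. Markers of sebocytes, the lipid-secreting cells of skin, rose in 4 of 10 cases (5.73 to 5.81 and 6.17 to 6.33), and 7 of the 10 were under background in both groups. The 4 included Pparg (4.66-fold) and Mgst1 (2.30-fold), and Pparg is also on the adipocyte list. The remaining risers, Awat1 (5.10 to 5.41) and Mc5r (4.74 to 5.51), were under background in both groups. Macrophage markers rose in 1 of 10 (13.4% among all genes), with 6 under background in both groups. Endothelial markers rose in 3 of 8, with 5 of the 8 under background in both groups, among them the risers Tek (5.09 to 5.62) and Emcn (4.34 to 5.02). Schwann cell and melanocyte markers rose in 2 of 6 with 1 lower. The olfactory receptor genes taken as background had a median change of 0.139 themselves. In RNA of a mixed culture, fewer cells of a type and less RNA per cell cannot be told apart, and the part of these markers in the lipid gene results was not tested.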

How the data were processed

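Total RNA from 6 samples was hybridised to one-colour Affymetrix arrays. The authors deposited log2 values of 35556 probe sets per array, which they made by RMA with the oligo package, per the submitters' processing notes. Tool versions are not given in the sources used here. As a method, RMA quantile normalizes between arrays, and no further scaling was applied. Of the probe sets, 21789 had 1 gene symbol in the platform annotation, 1621 had several and 12146 had none listed. The brightest probe set represented each of 19938 genes. The test was that of limma 3.58.1 (R 4.3.3) with lmFit and eBayes (FR minus DMSO, two-sided, all 6 arrays, Benjamini-Hochberg over all genes, threshold 0.05). With 3 arrays a group, precision is limited by their number, and the median SE of a change was 0.0962.

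The members and lists were chosen with earlier results of these data known. All members may be named, with up to 3 genes of each further pathway list and up to 2 of each marker list by size of change among those that passed. A count of 5 or fewer may be named in full. The genes of the fatty acid and glycerolipid list that fell are all named, beyond this rule. Those added so, and Rxrg, Awat1 and Mc5r, were not followed under the alternatives. Promoters are RefSeq's, build GRCm38.p6; the array's own build is not given in the sources used here. Alternatives changed the scaling (quantile, median centring, cyclic loess), left out dim genes, averaged a gene's probe sets, used array weights or robust moderation with a variance trend, blocked on replicate number, or dropped 1 array at a time.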

Additional observations from a re-analysis of the deposited data

How the results depend on the processing

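The 37 member changes gave 517 values under 14 alternatives: 485 kept direction and side of the threshold, 12 lost the call, 4 gained it (all Acaca) and 16 turned sign, all of genes that did not pass. The lost calls were those of Nsdhl, Dhcr7 and Insig2 given above. Signs turned with median centring for Ggps1 (-0.021), Scap (-0.030), Scd1 (-0.0058) and Nr1h3 (-0.050), with quantile normalization for Nr1h3 (-0.084), and with cyclic loess for Nr1h3 (-0.10) and Elovl6 (0.019). With an array left out, Ggps1 ranged from -0.0028 to 0.079, Scap from -0.031 to 0.078, Srebf1 from -0.14 to 0.038 and Nr1h3 from -0.061 to 0.079. The count of members that fell stayed between 24 and 27, and that of sterol enzymes between 13 and 15. Members that rose numbered 1 instead of 2, and those of the SREBP machinery 0 instead of 1, with median centring and with the replicate block, through Insig2; without single arrays they ranged from 1 to 2 and from 0 to 1. The median of the fatty acid branch was -0.49 with quantile normalization, -0.59 with median centring and -0.47 with cyclic loess, and from -0.54 to -0.51 without single arrays. That of the 3 LXR genes was 0.13 with cyclic loess and 0.93 with dim genes left out, which removes Nr1h3. The difference of Fads1 and Fads2 ranged from -0.058 to 0.032 without single arrays. Among the 33 other genes chosen by the naming rule, added as a set after the data were seen, 0 of 459 values turned sign and 32 lost the call. The cause of the scaling differences was not tested; median centring shifted the median change of all genes from 0.053 to -0.0029.

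Same-numbered arrays of the groups deviated together with r from -0.07 to 0.05. Whether such samples share more than a number is not in the labels, and 3 arrays a group cannot settle it. With the replicate block 4977 genes passed instead of 5559, and 1 of 3 arrays correlated best with its own number. The block moved no member call but that of Insig2 (adjusted p = 0.0526 in limma). Among the other genes chosen by the naming rule, it ended the calls of Sec24a (0.0604), Gpam (0.0508) and Mlxipl (0.0794).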
